A study of Triticum aestivum with 4 samples.

Results

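Flag leaves of wheat whose parents had been heat-primed were compared with those of wheat whose parents had not, all from progeny given no heat treatment as plants. The members are the 2 arrays of the 4 in the series whose plants were kept at 26/22 °C (day/night). This treatment lasted 6 days and began 10 days after anthesis. In group PC, the parents of the sampled plants had been put at 32/28 °C (day/night) for 2 days when they had 7 leaves and again when they had 9, and at 34/30 °C for a further 7 days that began 10 days after anthesis. In group NC, the parents had received none of this. The 34/30 °C period in PC began after the parents' anthesis, when they bore the seed of the sampled plants. Heat on the parents and heat on that seed cannot be told apart. Groups PH and NH are the progeny of the same primed and unprimed parents, but held at 34/30 °C for 6 days, beginning 10 days after their own anthesis. They share no array with PC and NC. The plants of every group were Yangmai 16, a winter cultivar of bread wheat, and each group has 1 Affymetrix wheat array. Treatments stood in separate growth chambers during priming and heat, per the labels, and how many plants stand behind an array is not given in the sources used here.

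Heat priming is a mild early exposure to warmth after which a plant tolerates later heat better. Such a memory can pass through the seed, and changes in chromatin, in DNA methylation and in what the mother plant loads into the grain are among the routes studied in plants. The flag leaf is the main source of sugar for the filling grain, so its photosynthesis, starch and fructan genes are the usual place to look for an effect on yield under heat. The comparison asks whether the leaf of a plant with no heat treatment of its own still differs by the treatment of its parents and the seed they bore.

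The values are probe set intensities on a linear scale. A floor of 12.3, the pooled median of all values other than controls, was set, and a probe set was counted as measured when PC or NC exceeded it. Of 61115 probe sets, 31915 were measured. With 1 array per group, no difference between PC and NC has a replicate error or a p-value, and the number of arrays limits the precision. A difference of 2-fold or more is used below as a rule of size only. Fewer cells of a type and less RNA per cell cannot be told apart in whole leaf samples.

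The markers of leaf were bright and those of grain mostly below the floor. All 8 leaf markers, among them the Rubisco large subunit and catalase, were above the floor on both arrays, with summed intensities of 55880 on PC and 54050 on NC. Of 16 grain markers, 13 were below the floor on both arrays. The list summed to 482 on PC and 449 on NC, most of it from 1 probe set of the avenin-like gene avnlb (394 on PC and 342 on NC). The other avnlb probe sets were below the floor, at 4.36 to 4.92 on PC and 4.78 to 6.53 on NC. The anther gene raftin1b stood near the floor at 15.5 on PC and 13.4 on NC, and raftin1a below it. Bacterial poly-A control RNAs were 1.3 times as bright on PC as on NC, at the median of 36 probe sets, all of which were brighter on PC. The hybridization controls had a median ratio of 1.02 over 27 probe sets. For ubiquitin, signal at the 3' end over that at the 5' end came to 0.75 on PC and 0.645 on NC, and for the other such control, Sucsyn, to 45.2 on PC and 50.9 on NC. The 5' signal of Sucsyn was below the floor, at 6.11 on PC and 5.86 on NC, so the size of its ratio is not reliable. The part of these control differences in the results was not tested.

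The leaves of PC and NC were close to each other across the array. Among the 29665 probe sets above the floor on both, 71.6% lay within 1.2-fold and 4.47% differed by 1.5-fold or more, with a median log2 difference of 0.01 and a robust SD of 0.23. For PH and NH the share beyond 1.5-fold was 12.2% and the robust SD 0.31. In PC, 109 probe sets were 2-fold or more higher (0.342% of those measured) and 134 lower (0.42%), together 0.761%. Scaling the arrays to a common median turned this balance, to 128 higher and 114 lower. The lower side reached further. Among the higher probe sets 89 lay between 2-fold and 2.5-fold, and among the lower ones 64. Past 4-fold there were 5 higher and 22 lower.

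**Figure D1:**
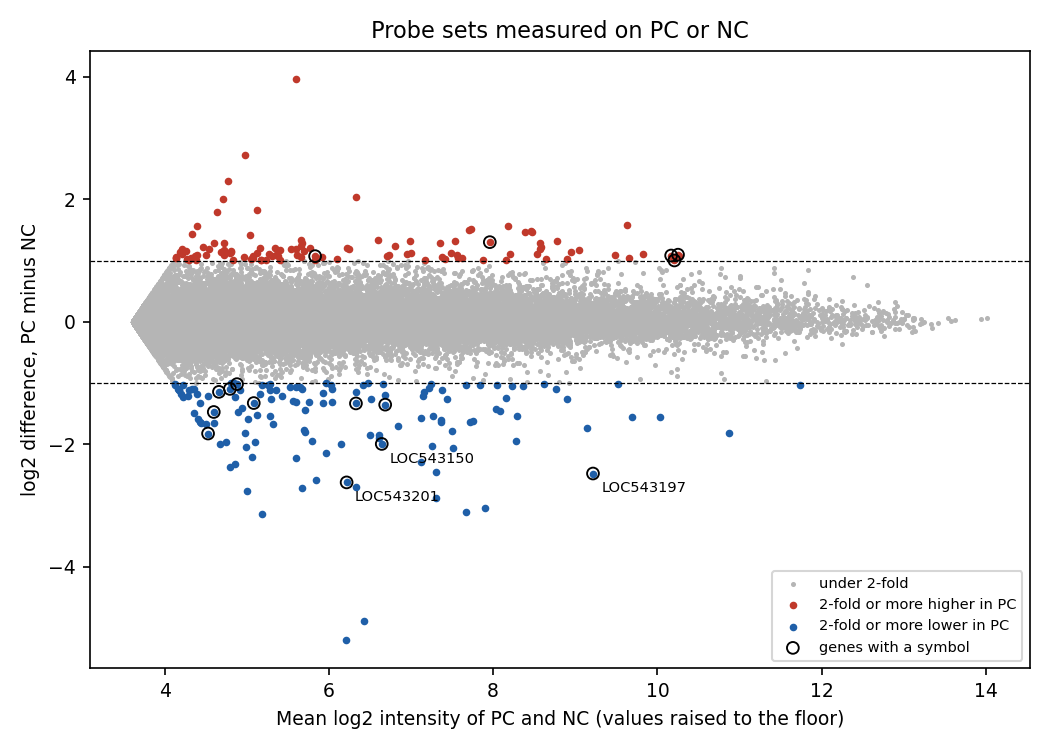
Each point is a probe set measured on PC or NC, with the mean log2 intensity of both arrays on the x axis and the log2 difference PC minus NC on the y axis. Red points (109) are 2-fold or more higher in PC and blue points (134) 2-fold or more lower; circles mark the 16 genes with a symbol. The cloud is centred on 0 and the blue points reach further from it than the red ones.

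Bright probe sets were among those that differed. Of probe sets whose brighter value lay between the floor and 53.6, 0.441% passed 2-fold, against 1.03% between 53.6 and 200, 1.23% between 200 and 1000, and 0.955% above 1000. The share in the dimmest class is partly set by the floor, since a probe set less than 2-fold above it cannot pass. The robust SD of the log2 difference ran from 0.25 in the dimmest of these classes to 0.19 in the brightest. Other probe sets of the same transcript cluster mostly differed in the same direction. For the lower probe sets, 118 of 127 pairings with another measured member of the cluster had the same sign. In 70 pairings the other member also passed 2-fold. For the higher ones, 67 of 78 pairings had the same sign and in 18 the other member passed. A pairing between probe sets that both passed was counted once from each of them. The share for cluster members among all measured probe sets was not computed. Probe sets of the types that may hybridize to more than 1 transcript (suffixes x, s and a) account for many of these pairings, since such probe sets can share probes. Without these types, 16 of 20 pairings of the lower and 13 of 16 of the higher probe sets had the same sign, and 6 (30.0%) and 4 (25.0%) passed 2-fold, against 55.1% and 23.1% over all types.

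A gene symbol was known for 5.5% of the probe sets higher in PC and 10.4% of those lower, against 2.83% of all measured. Taking the brightest probe set of each gene, 602 genes were measured, of which 5 were 2-fold or more higher in PC (0.831%) and 11 lower (1.83%), together 2.66%. When the floor was instead added to all values as a pseudocount, 3 higher and 6 lower genes passed. For 15 of these 16 genes the sources used here give only a locus symbol and no function. Over all measured genes with a symbol the median log2 difference was 0.02. In the gene order of the wheat reference table, no pair of the 16 genes stood within 20 genes of each other. Names and order alone were taken from that table (assembly IWGSC CS RefSeq v2.1). The count for genes drawn at random was not computed, so this shows nothing particular to the 16.

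The exception is TaGlu1a, a beta-glucosidase that releases toxic benzoxazinoids from their stored glucosides. It stood at 21.4 on PC and 53.8 on NC, 2.51-fold lower in PC. On the heated arrays it was dim in both backgrounds, at 20.4 on PH and 15.1 on NH. NC was thus the brightest of the 4 arrays, and PC lay close to the heated ones. With a floor at the 75th percentile (53.6), which lies just under the NC value, the log2 difference was -0.01.

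A set of 5 genes was lower in PC than in NC and also lower in PH than in NH. LOC543201 had 30.0 on PC against 185 on NC, and 285 on PH against 1269 on NH. LOC543197 had 252 on PC against 1404 on NC, and 2249 on PH against 4584 on NH. LOC543150 had 50.1 on PC against 199.7 on NC, and 408 on PH against 1853 on NH. In these 3 genes the array of the primed background was the dimmer at each temperature, and both heated arrays were brighter than both unheated ones. LOC542799 had 50.7 on PC against 128 on NC, and 209 on PH against 516 on NH. LOC606352 had 14.6 on PC, close to the floor, against 40.4 on NC, and 101 on PH against 239 on NH. The same order of arrays held in both. The log2 differences without heat ran from -2.62 for LOC543201 to -1.33 for LOC542799.

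How far these 5 values belong to single genes is limited by the probe sets. All 5 come from types that can match several transcripts. The other probe set of LOC542799 gave 28.4 on PC and 65.7 on NC, but is also of such a type. For LOC606352 a probe set of the specific type had 9.94 on PC and 28.6 on NC, at least 2.33-fold lower. For LOC543150 the specific probe set had 22.5 on PC and 24.6 on NC, a log2 difference of -0.13. That specific probe set carries in its ID the transcript cluster of the LOC543197 probe set. It was dim with heat too, at 21.8 on PH and 24.8 on NH. The probe set shown for LOC543150 had 408 on PH and 1853 on NH, and that for LOC543197 had 2249 and 4584. Whether the specific probe set reports the same transcripts as these was not tested. Its near-equal values therefore do not decide the difference between PC and NC for either gene. Neither LOC543201 nor LOC543197 had a second probe set under its own symbol.

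The other 5 locus-symbol genes that were lower in PC showed no such difference between the heated arrays. LOC542773 had 64.4 on PC against 165 on NC, and 13.6 on PH against 8.60 on NH. That probe set is of a type for several transcripts, and the specific one had 8.23 on PC and 24.9 on NC. LOC778394 had 8.88 on PC, below the floor, against 43.5 on NC and was at least 3.54-fold lower. This too came from a type for several transcripts. Its specific probe set had 5.45 on PC and 17.3 on NC, a bound of -0.49 in log2. LOC778394 was below the floor on PH and NH too, as were LOC542774 (17.0 on PC and 37.7 on NC) and LOC780678 (20.7 on PC and 42.0 on NC). LOC542875 had 19.0 on PC against 40.6 on NC, and 133 on PH against 113 on NH. Of the 11 lower genes, 6 were thus brighter on both heated arrays than on either unheated one, 2 were dimmer, and 3 were at or below the floor under heat.

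Among the 5 genes higher in PC, 3 were bright. LOC606330 had 1781 on PC against 833 on NC, and 1815 on PH against 2672 on NH. Its other probe set, of a type for several transcripts, had 1405 on PC and 802 on NC, 1.75-fold. LOC100037541 had 1673 on PC against 790 on NC, and 379 on PH against 207 on NH. Its other probe set was near the floor, at 18.1 on PC and 10.8 on NC. By the bright one, the primed background was 2.12-fold higher without heat and 1.83-fold higher with it. LOC606312 had 1672 on PC against 835 on NC, just at the threshold, and 230 on PH against 211 on NH. Its only probe set is of a type for several transcripts.

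The remaining 2 were dimmer. LOC543090 had 391 on PC against 159 on NC, but 34.7 on PH against 116 on NH, so the primed background was the higher without heat and the lower with it. LOC543298 had 82.7 on PC against 39.3 on NC, and 116 on PH against 105 on NH. Just outside the threshold lay LOC606310, with 202 on PC against 108 on NC, and LOC780687, with 22.5 on PC against 41.3 on NC.

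**Figure D2:**
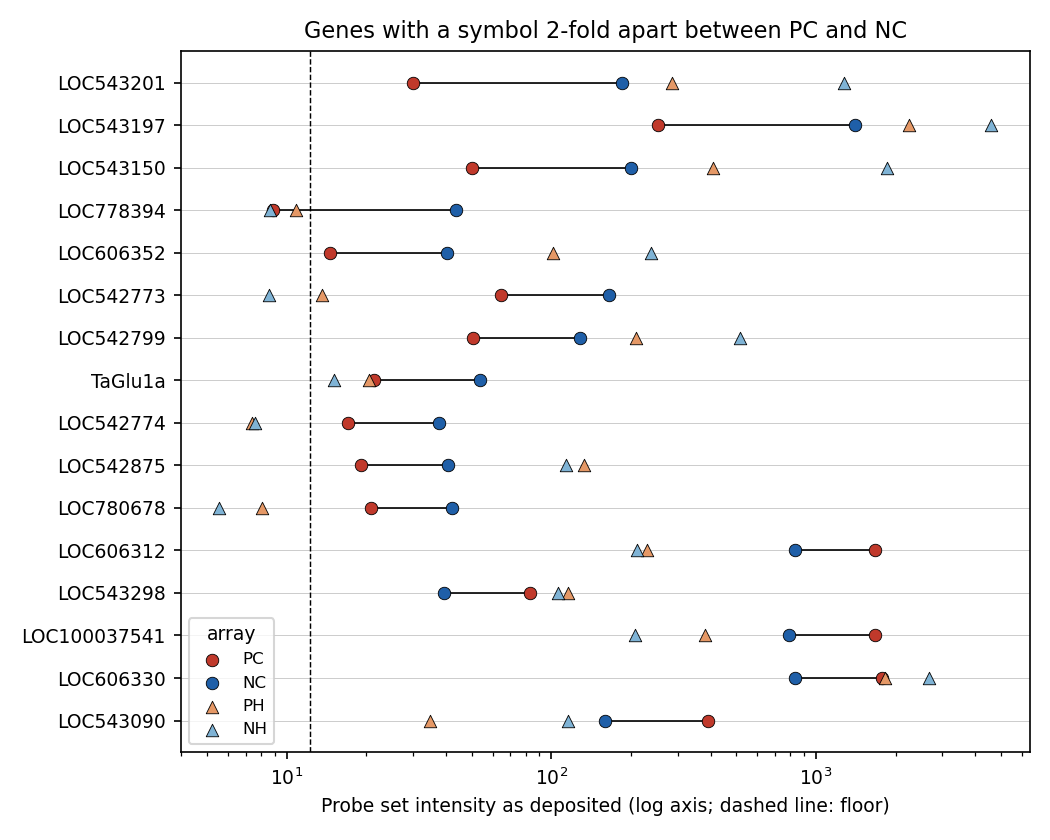
Deposited intensity (log axis) of the 16 genes with a symbol that were 2-fold or more apart between PC and NC, with 1 symbol per array and a line joining PC and NC; the dashed line is the floor of 12.3. From LOC543201 at the top to LOC780678, 11 genes are lower in PC, and the last 5 rows are higher in PC. For LOC543201, LOC543197, LOC543150, LOC606352 and LOC542799 the triangle of PH lies left of that of NH, as the dot of PC lies left of that of NC.

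Probe sets with no gene symbol held larger differences than these. Of those above the floor on both arrays, Ta.11519.1.A1_x_at had 15.9 on PC against 470 on NC, and 137 on PH against 9.38 on NH, which is below the floor. Ta.4328.1.S1_x_at had 69.3 on PC against 598 on NC and was below the floor under heat, at 2.70 on PH and 3.40 on NH. In the other direction, Ta.27279.1.S1_at had 163 on PC against 39.6 on NC and Ta.23340.2.S1_at had 52.6 on PC against 13.1 on NC, near the floor. These 2 were also below the floor on PH and NH. Among all probe sets measured on PC or NC, the largest folds were bounds, with 1 array below the floor. They were 15.6-fold higher and 36.6-fold lower in PC. The probe set with the 15.6-fold bound was also 2-fold or more higher in PH than in NH.

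Photosynthesis genes differed little between PC and NC. Of 7 genes, all measured, 0 passed 2-fold or even 1.5-fold, and the median log2 difference was 0.04 with a range from -0.12 to 0.22. In the oxygen-evolving complex, PsbO and PsbP had 6165 and 5727 on PC against 5853 and 5590 on NC. The Rieske protein gene petC, of the cytochrome b6/f complex, had 8082 on PC and 7853 on NC. In the Calvin cycle, PRK (phosphoribulokinase) had 6877 on PC and 5887 on NC, and FBP (fructose bisphosphatase) 1557 on PC and 1692 on NC. Trx-M, the thioredoxin m that passes light-driven reducing power to such enzymes, had 3899 on PC and 3791 on NC. The Rubisco large subunit, rbcl, had 16875 on PC and 16201 on NC, the highest value of each array. Its 11 measured probe sets of 28 reached up to 0.53 in log2 difference, with a median of -0.28, and the lowest was a bound of -0.83, since it had 11.7 on PC, under the floor.

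Sugar and starch genes likewise stayed within 2-fold. GAPN, a glyceraldehyde-3-phosphate dehydrogenase of the non-phosphorylating kind, had 1598 on PC and 1690 on NC, and Pgk-1, phosphoglycerate kinase, 3085 on PC and 3247 on NC. With PMM, phosphomannomutase, the 3 measured of 4 glycolysis and sugar phosphate genes had a median of -0.08. The starch and fructan list, 4 of 6 genes measured, had a median of 0.17. Its highest member was 1-FEH, a fructan exohydrolase that breaks stem and leaf fructan down, with 353 on PC against 214 on NC (1.65-fold). AGA.1, an ADP-glucose pyrophosphorylase subunit of starch synthesis, had 1128 on PC and 966 on NC.

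The genes of heat, cold and desiccation gave little signal. For hsp16.9A, which encodes a small heat shock protein, both arrays were below the floor, at 2.07 on PC and 2.17 on NC, as were EM and COR410. The 4 measured of 7 genes had a median of -0.22. FKBP70, a peptidyl-prolyl isomerase, was the bright member at 959 on PC and 1120 on NC. Rab15, LEA1 and EMH2 lay so near the floor that a 2-fold fall could not have been seen.

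In the redox and detoxification list, all 6 genes were measured and the median was -0.03. PCS1, phytochelatin synthase, had 21.0 on PC against 11.2 on NC, below the floor, at least 1.71-fold. Glyoxalase I, lgul, which clears methylglyoxal, had 452 on PC and 311 on NC, but its other probe set, brighter on these arrays, had 586 on PC and 578 on NC. CAT1, a catalase, had 6698 on PC and 7182 on NC. The 3 measured defence genes had a median of -0.49. Besides TaGlu1a, the xylanase inhibitor XIP-I had 916 on PC and 1286 on NC, and the thaumatin-like PR5 had 146 on PC and 196 on NC, so all 3 were lower in PC.

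Further lists hold genes that supply or use methyl groups, and chromatin proteins. They include no DNA methyltransferase and no histone-modifying enzyme, so an inherited mark was not tested. The methyl transfer and purine salvage list, with 6 of 6 genes measured, had a median of -0.09 and 0 past 2-fold. COMT1, caffeic acid O-methyltransferase, had 881 on PC and 1208 on NC, and SAHH, which removes the S-adenosylhomocysteine left by methyl transfer, 4300 on PC and 5532 on NC. PIMT, a protein repair methyltransferase, had 83.7 on PC against 53.0 on NC (1.58-fold). Of the histones and high mobility group proteins, 5 of 6 genes were measured with a median of 0.10. The histone H2B gene wcH2B-6 had 67.8 on PC against 109 on NC (1.61-fold lower), but its other probe set, of a type for several transcripts, went the other way with 86.5 on PC against 72.0 on NC. For wcH2B-8, also an H2B gene, the brightest probe set had 548 on PC and 511 on NC, and its 4 measured probe sets ran from -0.19 to 0.11 in log2 difference. Hmgb3, a high mobility group protein, had 1219 on PC and 937 on NC. Histone genes form near-identical families, so these values can mix several copies.

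In the remaining lists no gene passed 1.5-fold. Tubulins and profilin (7 genes measured) had a median of -0.03 with tubb2, a beta-tubulin, highest at 189 on PC against 134 on NC and TUBA, an alpha-tubulin, lowest at 2569 on PC against 2754 on NC. Translation genes (7 measured) had a median of 0.04, between the initiation factor genes eIF-2-beta (432 on PC and 464 on NC) and Eif4B (428 on PC and 381 on NC). Transport and cell wall genes (4 of 5) had a median of 0.02. LTP3, a lipid transfer protein, was the lowest of them at 1888 on PC and 2195 on NC, and ha1, a proton pump of the plasma membrane, the highest at 3090 on PC and 2959 on NC. Grain storage proteins and inhibitors (4 of 17) had a median of -0.05. The lowest was Gli-8, a gliadin, with 9.15 on PC, below the floor, and 15.6 on NC, and the highest avnlb. The 1 measured gibberellin gene, the 20-oxidase GA20ox1d, had 16.0 on PC and 15.7 on NC. Over all 14 lists, 62 of 87 genes were measured. None was 2-fold higher in PC, 1 (TaGlu1a) was 2-fold lower, 3 were 1.5-fold or more higher (PCS1, 1-FEH and PIMT) and 2 lower (TaGlu1a and, by 1 of its 2 probe sets, wcH2B-6). Among all 602 genes with a symbol, 20 were 1.5-fold or more higher and 18 lower.

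**Figure D3:**
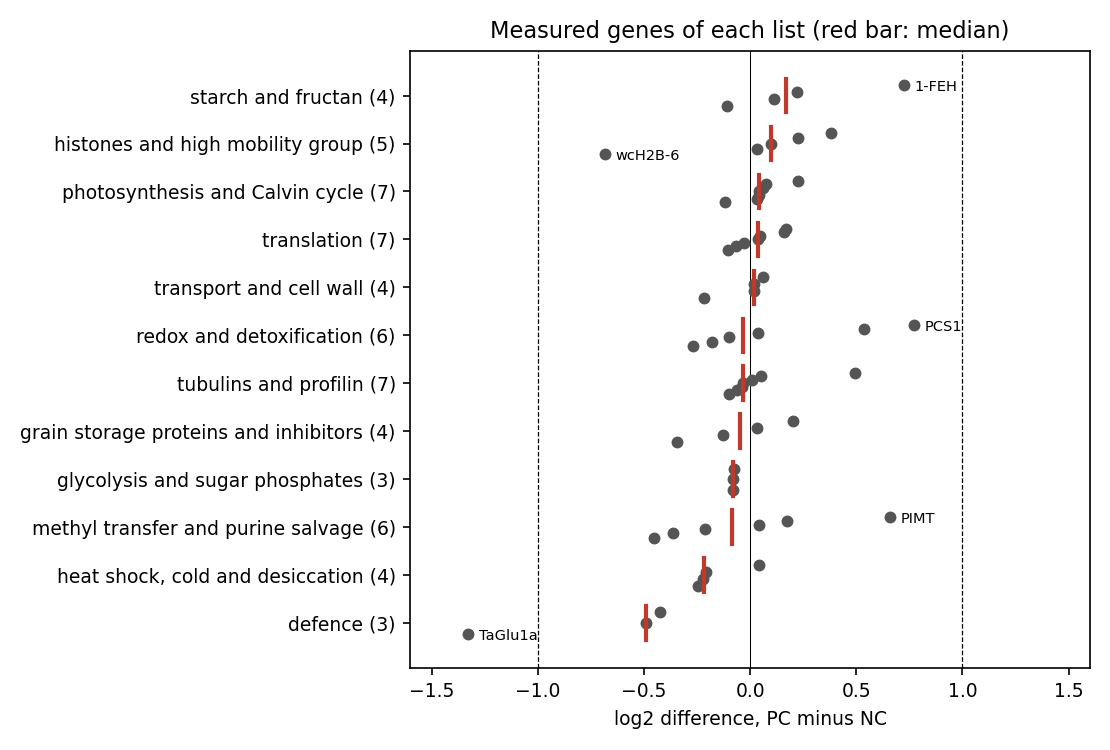
Each point is a measured gene of a list, placed by its log2 difference PC minus NC; the red bar is the median and the number in brackets the measured genes, for lists with at least 3. Dashed lines mark 2-fold. TaGlu1a is the point beyond them, and the 7 photosynthesis genes lie within 0.22 of 0.

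Many of the differing probe sets were at or below the floor under heat. Of the 109 higher in PC, 35 (32.1%) were at or below the floor on both PH and NH, and of the 134 lower, 35 (26.1%), against 6.58% of all measured probe sets. The heated arrays took no part in choosing these probe sets. Where the brighter of PC and NC lay between 53.6 and 200, the shares were 33.3% of the higher, 21.8% of the lower and 1.75% of all. Between 200 and 1000 they were 17.2%, 16.2% and 0.934%, and above 1000 the counts were 1 of 8 higher and 0 of 7 lower. These classes do not match the other array, which in the differing probe sets was dimmer by the rule that chose them. By the dimmer of PC and NC instead, a sorting added after the data were seen, the shares between the floor and 53.6 were 39.7% of the higher, 28.6% of the lower and 6.77% of all, and between 53.6 and 200 they were 19.0%, 13.9% and 1.37%. Between 200 and 1000, 3 of 22 higher and 0 of 11 lower probe sets were at or below the floor under heat. These shares are a description, since the classes rest on the values that chose the probe sets. The median intensities of the higher probe sets were 79.8 on PC and 32.9 on NC, but 22.7 on PH and 23.4 on NH. Those of the lower ones were 31.2 on PC and 96.3 on NC, and 23.4 on PH and 30.8 on NH.

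**Figure D4:**
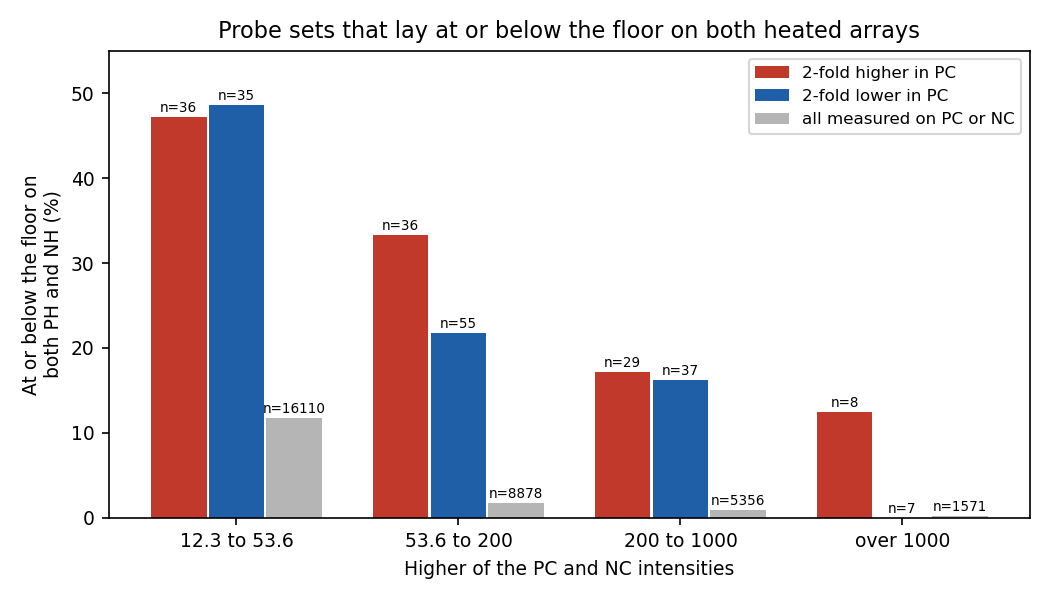
Share of probe sets (percent) at or below the floor on both PH and NH, by the higher of their PC and NC intensities, for those 2-fold higher in PC, 2-fold lower in PC, and all measured; n gives the probe sets behind each bar. In the 3 dimmer classes both coloured bars stand above the grey one, at 17.2% and 16.2% against 0.934% between 200 and 1000; the dimmer of PC and NC is not matched within a class.

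The probe sets lower in PC were mostly lower in PH as well, while those higher in PC were divided. Of 99 lower ones measured on PH or NH, 75 (75.8%) were lower in PH than in NH, against 50.2% of all probe sets measured on both pairs, and 27 (27.3%) were 2-fold lower, against 1.29%. Of 74 higher ones, 43 (58.1%) were higher in PH, against 49.0%, and 7 (9.46%) were 2-fold higher, against 2.33%. In the opposite direction, 8 of the higher (10.8%, against 1.29% of all) were 2-fold lower in PH, and 3 of the lower (3.03%, against 2.33%) were 2-fold higher in PH. Of the probe sets higher in PC, about as many were thus 2-fold lower in PH as 2-fold higher. Without the types for several transcripts, 47 of 60 lower probe sets (78.3%) were lower in PH and 32 of 54 higher ones (59.3%) were higher. PH and NH differed more widely over the array, with 2.27% of measured probe sets 2-fold higher in PH and 1.5% lower. The 27 that were lower in both made up 20.1% of the list from PC and NC and 5.72% of that from PH and NH. Their median intensities were 30.8 on PC and 128 on NC, and 101 on PH and 352 on NH.

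**Figure D5:**
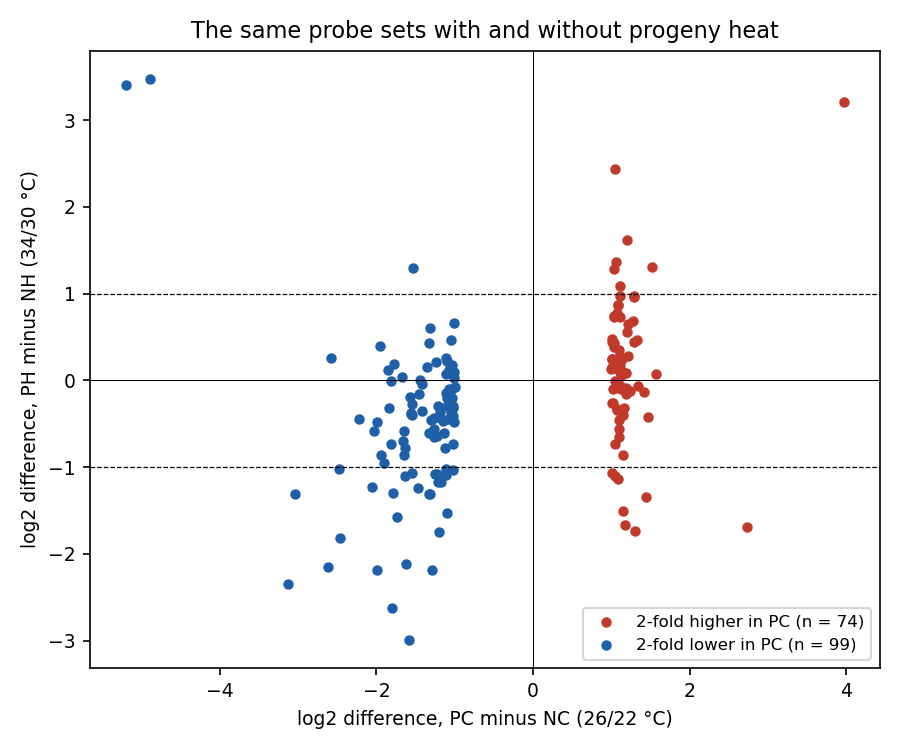
Each point is a probe set 2-fold apart between PC and NC and measured on PH or NH, with log2 PC minus NC on the x axis and log2 PH minus NH on the y axis; dashed lines mark 2-fold. Of the 99 blue points 75 lie below 0 and of the 74 red points 43 lie above it.

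A fit across all 4 arrays gave no call for priming. An additive limma model of parent treatment and progeny temperature uses the interaction, 1 residual degree of freedom, to estimate the error. It tests a difference common to both temperatures rather than that of PC and NC alone. It called 0 of 33561 probe sets at a Benjamini-Hochberg adjusted p under 0.05, with 1423 (4.24%) at an unadjusted p under 0.05. LOC543150 had a priming term of -2.09 ± 0.144 (SE) and LOC543201 of -2.39 ± 0.18, each with an adjusted p of 0.879 in limma. Both were chosen for passing 2-fold between PC and NC, and the fit uses those same values, so their terms are no separate support. Among the other genes so chosen, LOC542799 had -1.32 ± 0.136. LOC606330 had only 0.269 ± 0.442 and LOC543090 -0.219 ± 0.785. A fit limited to probe sets above the floor on all 4 arrays, added after the data were seen, also called 0, of 27473, with 1332 at an unadjusted p under 0.05. With 1 residual degree of freedom, these counts of 0 do not show that the arrays did not differ.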

How the data were processed

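For each of 4 groups, 6 µg of flag leaf RNA went onto 1 Affymetrix wheat array. The authors deposited probe set intensity on a linear scale, with MAS5 named per the submitters' processing notes; its version, any scaling and the detection calls are not stated there. The labels name Cy3 but describe a biotin protocol, which is not settled here. Of 61290 probe sets, 175 controls were left out (111 Affymetrix, 64 reporter). Values were otherwise kept as deposited, raised to a floor at the pooled 50th percentile and compared as log2 PC minus NC. Folds against a value under the floor are lower bounds ("at least"). Each gene is shown by the probe set with the highest mean log2 value over the 4 arrays. Symbols came from the platform annotation (1273 probe sets, 771 genes; 770 matched to the reference gene table), updated through gene IDs. No sequences or coordinates are given.

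The members, gene lists and named genes were chosen with earlier results of these data known, and the final lists were assigned from gene names after the table was in hand. Named were the genes with a symbol past 2-fold, of each list those past 1.5-fold or else its ends, the leaf markers, and, of the probe sets without a symbol that were above the floor on both PC and NC, the 2 highest and 2 lowest differences. Further members are named for their role. The counting step and the limma fit were tested on simulated data. The alternatives tried were scaling to a common median, quantile normalization, a floor at the 25th (4.20) or the 75th percentile (53.6), adding the floor as a pseudocount instead, a 3-fold threshold, leaving out the probe set types for several transcripts, and averaging all measured probe sets of a gene. Computing used limma 3.58.1 in R 4.3.3 and, in Python 3.11.15, pandas 2.3.3, numpy 2.4.6 and matplotlib 3.10.9.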

Additional observations from a re-analysis of the deposited data

Results flagged for a closer look

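At LOC543090 the primed and unprimed backgrounds differed in opposite directions at the 2 temperatures: the gene was 2.46-fold higher in PC than in NC, while log2 PH minus NH was -1.74. Probe set Ta.11519.1.A1_x_at did so the other way, with -4.88 without heat and 3.48 with heat, this last a bound since NH was below the floor. With 1 array per group these differences between temperatures were not tested. Outside the probe sets compared, the poly-A controls carried signal with a median PC to NC ratio of 1.3, and a PH to NH ratio of 0.557. Their part in the results was not tested.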

How the results depend on the processing

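No paired analysis was possible because each group holds 1 array, and no replicate could be left out. Counts of probe sets between PC and NC depended on the floor. With the floor at the 75th percentile, 47 were higher and 63 lower in PC, 5 genes with a symbol were lower, and 3 probe sets were higher and 12 lower in both PC and PH. With the floor at the 25th percentile, 12 were higher in both. The pseudocount gave 45 higher and 86 lower probe sets and 3 higher and 6 lower genes. Without the types for several transcripts, 82 probe sets and 6 genes were lower in PC, 4 and 15 probe sets were higher and lower in both, and the list medians were -0.19 for histones and 0.17 for methyl transfer, each over 3 genes. At 3-fold, 7 probe sets were higher and 51 lower, 0 genes higher and 4 lower, and 1 and 7 probe sets higher and lower in both. Averaging probe sets left 3 higher genes. The lower counts follow by construction from a higher floor or threshold, damped ratios or fewer probe sets, and the rise at the 25th percentile from a lower floor. The cause of the changed list medians was not tested. Median scaling and quantile normalization kept every such count within 1.5 times. None of the 16 genes reversed under any alternative that still measured it: 16 stayed past 2-fold with the floor at the 25th percentile, 15 under either scaling, and 9 with the pseudocount. A floor, a pseudocount or a threshold cannot turn the sign of a difference, and a lower floor cannot shrink one. Under these, the lack of reversal and the 16 at the 25th percentile were fixed in advance. With the floor at the 75th percentile, 9 of the 11 genes still measured stayed past 2-fold. Without the types for several transcripts 10 of 12 did, while LOC543150 fell to -0.13 and LOC778394 to -0.49 in log2. The other 80 list medians computed under the alternatives moved by less than the robust SD of 0.23. The limma fit was not run for the 3-fold threshold or for averaged probe sets. Under the other alternatives it called 0, with adjusted p-values in limma down to 0.532 and, by setting, 633 to 2160 probe sets at an unadjusted p under 0.05.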
